A study of Mus musculus with 7 samples.

Results

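Chemokines are small secreted proteins that steer leukocytes through receptors on the cell surface, and 10 genes for chemokine ligands were examined in the RNA of mouse brain tumors: Ccl2, Ccl3, Ccl4, Ccl5, Ccl12, Cxcl9, Cxcl10, Cxcl12, Cxcl14 and Cxcl16. They were found by gene symbol, with no measured value used, and made up 10 of the 19257 genes of the table. All 10 of the 10 also passed the filter for the test, a mean of at least 10 normalized counts over the libraries, which 14782 genes passed. At an adjusted p under 0.05 the groups differed for none of them. For 9 the mean log2 level was lower in GPC6 than in 3xCR tumors, with Cxcl14 the exception, and for all 10 the libraries of the groups overlapped.

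Tumors of the 3xCR group, named control in the labels, were made by in utero electroporation of 1 construct with Cas9 and guides that include those for Trp53 and Nf1, both tumor suppressors, together with a piggyBac green fluorescent reporter. GPC6 tumors received the same mix and a piggyBac plasmid that overexpresses GPC6, a glypican, which is a cell surface protein that carries heparan sulfate chains. Both groups therefore carry the tumor suppressor guides and the reporter, and no tumor-free brain is among the libraries. The animals were CD-1 or C57BL/6 mice of both sexes, and neither the strain, the sex nor the age behind a library is given beyond the tumor endpoint. Tissue was taken under fluorescence, and 1 library was made per tumor, with 3 for 3xCR (replicates 2, 3 and 4) and 4 for GPC6 (replicates 1 to 4). Library values below always follow this order of replicate numbers.

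CC and CXC chemokines are named for the spacing of their first cysteines. Ccl2 and Ccl12 act on Ccr2, the receptor by which monocytes leave the blood. Ccl3, Ccl4 and Ccl5 are inflammatory CC chemokines that draw macrophages and T cells. Cxcl9 and Cxcl10 are induced by interferon and act on Cxcr3 of activated T and NK cells. Cxcl16 is made as a membrane protein, is shed by Adam10 and Adam17, and acts on Cxcr6 of T cells. Cxcl12 acts on Cxcr4 and is scavenged by Ackr3, and in brain it comes largely from vessels, meninges and some neurons. Cxcl14 is made by resting epithelia and by some neurons, and its receptor is less settled. In gliomas, microglia and infiltrating macrophages are a main source of CC chemokines, and most chemokines bind heparan sulfate, the sugar that glypicans carry.

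In GRCm38, the build behind mm10, the CC genes and Cxcl16 lie on chromosome 11, in the GENCODE M21 annotation. Ccl2 spans 82035571 to 82037453 and Ccl12 82101845 to 82103400, both on the plus strand. Further along, Ccl5 spans 83525778 to 83530518 and Ccl3 83647844 to 83649355 on the minus strand, and Ccl4 83662584 to 83664683 on the plus strand. Cxcl16 lies apart from them at 70453983 to 70459984 on the minus strand, where its exons overlap those of Zmynd15 on the other strand. Cxcl9 and Cxcl10 are neighbours on the minus strand of chromosome 5, at 92321347 to 92328079 and 92346638 to 92348889, and Cxcl10 overlaps exons of Art3 on the other strand. Cxcl12 is on chromosome 6 at 117168535 to 117181367 (plus strand) and Cxcl14 on chromosome 13 at 56288643 to 56296551 (minus strand). Whether the counting used strand is not stated, so reads of Cxcl10 and Art3, or of Cxcl16 and Zmynd15, cannot be told apart where they overlap.

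Promoters are shown for the neighbours Cxcl9 and Cxcl10, whose levels went together across the libraries, and for Cxcl14, whose level did not follow theirs. RefSeq (GRCm38.p6) gave a promoter for 6 of the 10 genes, namely Ccl3, Ccl12, Cxcl9, Cxcl10, Cxcl12 and Cxcl14. Each sequence below is the 250 bases before the start of the transcript, written 5′ to 3′ on the strand of the gene. Capitals mark matches to a form of the interferon response element, GAAANNGAAA, or to a form of the kB motif bound by NF-kB, GGGANNTTCC. Only these letters were searched, so sites of either kind with other letters are not marked or counted. The regions are chr5:92328080-92328329 for Cxcl9, chr5:92348890-92349139 for Cxcl10 and chr13:56296552-56296801 for Cxcl14, all on the minus strand.
Cxcl9: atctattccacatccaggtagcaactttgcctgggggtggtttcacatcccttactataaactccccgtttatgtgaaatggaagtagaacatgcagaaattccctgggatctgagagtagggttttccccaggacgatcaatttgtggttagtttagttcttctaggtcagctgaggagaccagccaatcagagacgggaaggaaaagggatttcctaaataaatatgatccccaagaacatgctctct
Cxcl10: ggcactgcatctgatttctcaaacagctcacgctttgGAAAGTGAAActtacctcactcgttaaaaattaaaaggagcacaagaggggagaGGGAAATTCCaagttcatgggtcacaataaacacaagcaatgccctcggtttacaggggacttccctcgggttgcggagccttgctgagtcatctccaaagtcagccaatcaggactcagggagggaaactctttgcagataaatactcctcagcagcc
Cxcl14: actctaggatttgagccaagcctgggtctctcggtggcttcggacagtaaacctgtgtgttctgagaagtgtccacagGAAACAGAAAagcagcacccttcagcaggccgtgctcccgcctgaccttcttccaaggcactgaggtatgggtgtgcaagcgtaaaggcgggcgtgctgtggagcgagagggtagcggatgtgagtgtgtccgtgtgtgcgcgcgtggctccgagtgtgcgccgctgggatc

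The Cxcl10 promoter held 1 match to the interferon motif, 213 bases before the start, and 1 to the kB motif, 159 bases before it. In Cxcl14 the interferon motif stood 172 bases before the start and the kB motif was not found. Neither motif was found in the 250 bases of Cxcl9, Ccl3, Ccl12 or Cxcl12. Searched on both strands in all 32536 distinct mouse promoters of the same length, the interferon motif was in 2.98% and the kB motif in 1.21%. The motifs were searched separately, and their matches in Cxcl10 do not overlap. A match describes letters only and says nothing of binding.

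Reads on genes ran from 7197692 to 18879762 per library with a median of 10566182, and a count of 0 allowed 1.64 to 4.64 normalized counts, which covers counting error only. Gpc6 itself checks the labels, with 217, 226 and 126 normalized counts in the 3xCR libraries and 675, 263, 3434 and 5084 in the GPC6 libraries. The library labelled GPC6 replicate 2 thus lay near the 3xCR level, and GPC6 replicate 1 stood apart by Avp, a hypothalamic hormone, at 541 against 0 to 7.10 in the others. That library also held the least Top2a, a marker of proliferating cells, at 145 against 1255 to 5412. It held the most Ttr, a choroid plexus marker, at 11813 against 10.9 to 3240. Over all 14782 genes limma called none at an adjusted p under 0.05 (0%), with 689 at an unadjusted p under 0.05. On the recovered reads of the same genes edgeR and voom also called 0, and DESeq2 called 9. The unadjusted calls were higher in GPC6 for 405 genes (2.74%) and lower for 284 (1.92%), so that 58.8% were higher, against 46.8% after scaling to an equal upper quartile. Each library is 1 tumor, and p-values measure the spread between these 7 tumors. In bulk tissue, fewer cells of a type and less RNA per cell cannot be told apart.

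**Figure D1:**
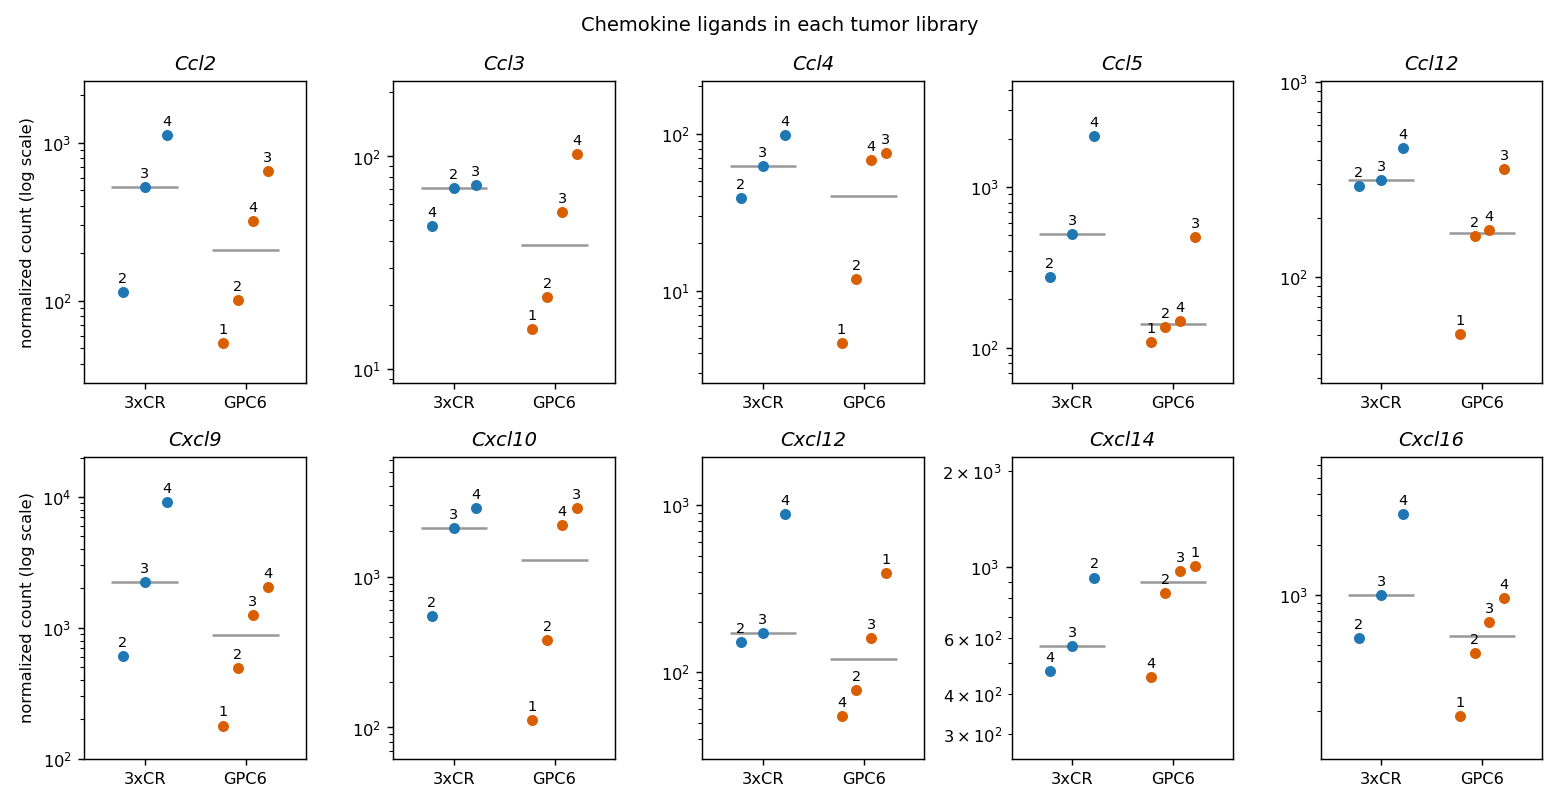
Normalized counts of the 10 chemokine genes in each library (logarithmic axis), with 3xCR and GPC6 side by side, the replicate number beside each point and the group median as a line. The points of the groups overlap in every panel, 3xCR replicate 4 is the highest point in 8 panels and GPC6 replicate 1 the lowest in 8.

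Ccl2 and Ccl12, the ligands of Ccr2, had lower means in GPC6 tumors by about a log2 unit. Ccl2 had 113, 523 and 1117 normalized counts in the 3xCR libraries and 54.1, 101, 659 and 319 in the GPC6 libraries. GPC6 replicates 1 and 2 lay below every 3xCR library, while replicates 3 and 4 fell among them. The means were 584 ± 505 (SD, n = 3) and 283 ± 276 (SD, n = 4), and the log2 fold change of -1.13 (SE 1.02) did not pass in limma (adjusted p = 0.761). Ccl12 had 293, 315 and 461 in the 3xCR libraries and 51.0, 162, 357 and 174 in the GPC6 libraries. GPC6 replicate 3 alone exceeded the lower pair of 3xCR libraries, and the other GPC6 libraries lay below all of 3xCR. Its log2 fold change was -1.21 (SE 0.59, limma unadjusted p = 0.0772, adjusted p = 0.730), from 357 ± 91.3 to 186 ± 127, and -0.69 without GPC6 replicate 1.

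Among the inflammatory ligands Ccl3, Ccl4 and Ccl5, Ccl5 gave the smallest unadjusted p of the 10 genes and Ccl3 one of the smaller fold changes. Ccl5, which also acts on Ccr1 and draws T cells and monocytes, had 277, 510 and 2079 normalized counts in the 3xCR tumors and 108, 134, 489 and 147 in the GPC6 tumors. Only GPC6 replicate 3 reached into the 3xCR range, and 3xCR replicate 4 stood far above the other 3xCR libraries. From 955 ± 980 to 220 ± 180, the log2 fold change was -1.88 (SE 0.76), with an unadjusted p of 0.0387 and an adjusted p of 0.730 in limma. Across the genes tested, 0.568% had a lower log2 fold change. Leaving out single libraries gave -2.51 to -1.06. The first was without 3xCR replicate 2 (limma unadjusted p = 0.0132, adjusted p = 0.5735) and the latter without 3xCR replicate 4 (limma unadjusted p = 0.147).

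Ccl3, made by microglia and macrophages, had 71.3, 73.5 and 47.0 normalized counts in the 3xCR libraries and 15.5, 21.7, 55.0 and 103 in the GPC6 libraries. The 3xCR values stayed close together, whereas the GPC6 values held both the 2 lowest and the highest of all 7. Ccl4, its neighbour on the chromosome, had 38.9, 62.3 and 98.1 in 3xCR and 4.64, 11.9, 75.4 and 67.9 in GPC6. The 4.64 of GPC6 replicate 1 was 3 reads, with an exact 95% Poisson interval of 0.956 to 13.6 normalized counts. Log2 fold changes were -0.73 (SE 0.67) for Ccl3 and -1.34 (SE 0.97) for Ccl4, with adjusted p-values of 0.763 and 0.732 in limma. Means went from 63.9 ± 14.7 to 48.8 ± 40.0 for Ccl3 and from 66.4 ± 29.8 to 39.9 ± 36.9 for Ccl4.

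Cxcl9 and Cxcl10, the interferon-induced ligands of Cxcr3, had the highest mean levels of the 10 per kilobase of exon and the widest spread between libraries. Cxcl9 had 613, 2231 and 9228 normalized counts in 3xCR and 179, 492, 1259 and 2058 in GPC6, a range of 51.5-fold. Cxcl10 had 548, 2098 and 2850 in 3xCR and 111, 378, 2848 and 2192 in GPC6, a range of 25.6-fold. In GPC6 replicates 1 and 2 both genes lay below every 3xCR library, and in GPC6 replicates 3 and 4 both lay inside the 3xCR range. The log2 fold change was -1.75 (SE 1.06) for Cxcl9, from 4024 ± 4579 to 997 ± 840, and -1.05 (SE 1.16) for Cxcl10, from 1832 ± 1174 to 1383 ± 1345. Neither passed in limma, with adjusted p-values of 0.730 and 0.802. Omission of single libraries gave -2.71 to -0.76 for Cxcl9, the latter without 3xCR replicate 4, and kept Cxcl10 below 0. Without both GPC6 replicates 1 and 2, Cxcl10 was at 0.75, and Ccl2, Ccl3 and Ccl4 were also above 0.

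Cxcl16 followed Cxcl9 closely. It had 549, 1003 and 3059 normalized counts in the 3xCR libraries and 187, 448, 685 and 956 in the GPC6 libraries, so that GPC6 replicates 3 and 4 lay between 3xCR replicates 2 and 3. Its log2 fold change was -1.30 (SE 0.70), from 1537 ± 1338 to 569 ± 328, with an unadjusted p of 0.102 and an adjusted p of 0.730 in limma, and it was -0.61 without 3xCR replicate 4. With DESeq2 on the recovered reads, the unadjusted p was 0.00751 for Ccl5, 0.0335 for Cxcl9 and 0.0414 for Cxcl16, and the adjusted p was 0.271, 0.368 and 0.389.

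For Cxcl12 and Cxcl14, GPC6 replicate 1 was not the lowest library, unlike for the other 8 genes. Cxcl12 had 151, 171 and 887 normalized counts in 3xCR and 393, 78.0, 161 and 54.5 in GPC6. Here GPC6 replicate 1 was second only to 3xCR replicate 4, and GPC6 replicate 4 was lowest. The log2 fold change was -1.14 (SE 0.83), from 403 ± 419 to 171 ± 154, with an adjusted p of 0.734 in limma. It was -0.32 without 3xCR replicate 4. Cxcl14 had 928, 567 and 472 in 3xCR and 1008, 828, 970 and 452 in GPC6, the narrowest range of the 10 at 2.23-fold. GPC6 replicate 1, lowest for 8 of the genes, was here the highest, and the values of the groups interleaved. With means of 656 ± 240.3 and 814 ± 254, its log2 fold change was 0.31 (SE 0.36, adjusted p = 0.814 in limma).

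**Figure D2:**
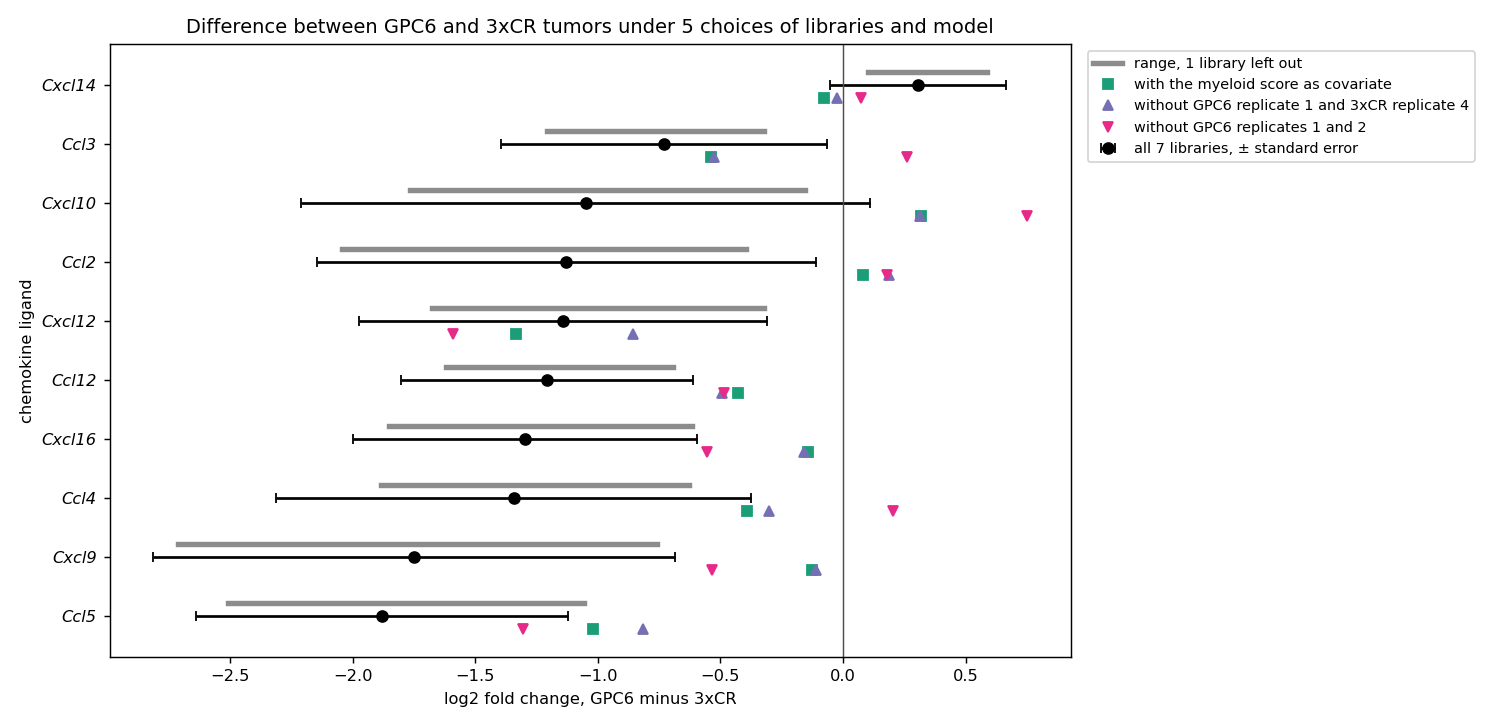
Log2 fold change of GPC6 over 3xCR for each chemokine gene, as a black point with its standard error, beside a grey bar for the range with 1 library left out and coloured symbols for the fits without 2 libraries or with the myeloid score (microglia and macrophage markers) as a covariate. Of the black points, 9 of 10 lie below 0, and the coloured symbols of Ccl2, Ccl3, Ccl4, Cxcl10 and Cxcl14 reach the other side of 0.

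Read against all genes, 9 of the 10 had a log2 fold change below 0, where 51.7% of the 14782 genes did. The median was -1.17 for the 10 genes and -0.02 for all genes, and single-gene shares differed, from 0.568% of genes below Ccl5 and 0.778% below Cxcl9 to 9.52% below Ccl3 and 74.0% below Cxcl14. At an unadjusted p under 0.05 in limma, 1 of the 10 was lower and 0 were higher, against 1.92% of all genes lower and 2.74% higher. Non-overlapping groups were seen for 0 of the 10, against 2.8% of all genes higher and 3.52% lower. Leaving out each library in turn kept 9 genes below 0 and moved the median from -1.72 to -0.66. Without both GPC6 replicate 1 and 3xCR replicate 4, 8 were below 0 with a median of -0.23. In that fit Ccl5 was at -0.81, Cxcl9 at -0.11 and Cxcl16 at -0.16. Without GPC6 replicates 1 and 2, the 2 libraries that were low for most of the genes, 5 were below 0 with a median of -0.21.

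The spread between libraries was wide for most of these genes. On the log2 scale the SD over the 7 libraries was 1.83 for Cxcl9, 1.81 for Cxcl10 and 1.61 for Ccl2, against a median of 0.52 over all genes tested. Cxcl14, at 0.50, was near that median. Within 3xCR alone the SD of Ccl3 (0.35) and of Ccl12 (0.35) lay below it, whereas in GPC6 they were 1.21 and 1.15. Summed over the 10 genes, normalized counts were 3582, 7553 and 20299 in the 3xCR libraries and 2111, 2655, 7558 and 6523 in the GPC6 libraries. They took 0.0346%, 0.0716% and 0.177% of the reads in 3xCR and 0.0190%, 0.0254%, 0.0751% and 0.0641% in GPC6. Hence 3xCR replicate 4 held the most RNA of these 10 genes and GPC6 replicate 1 the least, and GPC6 replicates 3 and 4 stood with 3xCR replicate 3. This does not hold for all chemokines. The 16 other ligands tested summed to 7231 in GPC6 replicate 1, second only to 14086 in 3xCR replicate 4.

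Per kilobase of exon, which allows levels of different genes to be compared, Cxcl9 led with a mean of 761 ± 1046 normalized counts per kb (SD, n = 7) and Cxcl10 followed with 699 ± 529. Ccl5 had 557 ± 730, Ccl12 482 ± 258, Cxcl14 409 ± 133, Ccl2 362 ± 339 and Cxcl16 326 ± 317. By the median, Cxcl10 led with 931, then Ccl12 with 546, Cxcl14 with 453 and Cxcl9 with 417, since the mean of Cxcl9 rests largely on 3xCR replicate 4. Neighbours in the order of means did not differ beyond their spread, since Cxcl9 exceeded Cxcl10 in 2 of the 7 libraries and Ccl12 exceeded Cxcl14 in 5. A gap followed, because Cxcl16 exceeded Ccl4 (77.7 ± 51.9) in all 7 libraries. Ccl3 had 72.1 ± 40.0 and exceeded Cxcl12 (33.1 ± 35.8) in 5 of 7. The exon length of Cxcl12, 8.18 kb, joins all its isoforms, which lowers its level per kb. For Cxcl10 the joined exons form 1 block of 2.25 kb that covers the whole gene, so introns count as exon. This lowers the level of Cxcl10 per kb too, and the order of Cxcl9 and Cxcl10 by the mean is uncertain.

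Over the 28 pairs of the 8 genes other than Cxcl12 and Cxcl14, Pearson's r of the log2 levels was 0.34 to 0.99 with a median of 0.85, given as a description because the points share libraries. Cxcl9 and Cxcl16 had r = 0.99, Ccl4 and Cxcl10 0.97, Ccl2 and Cxcl10 0.95, and the neighbours Cxcl9 and Cxcl10 0.89. Without GPC6 replicate 1 and 3xCR replicate 4, over 5 libraries, the 28 pairs stayed positive at 0.23 to 0.99 with a median of 0.71. Cxcl14 was negative in all its 9 pairs (-0.82 to -0.02), and over the same 5 libraries 3 of the 9 turned positive. Cxcl12 ranged from -0.33 to 0.64 in its pairs with the 8 over all libraries, and from 0.01 to 0.93 over the 5, where all 8 pairs were positive.

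**Figure D3:**
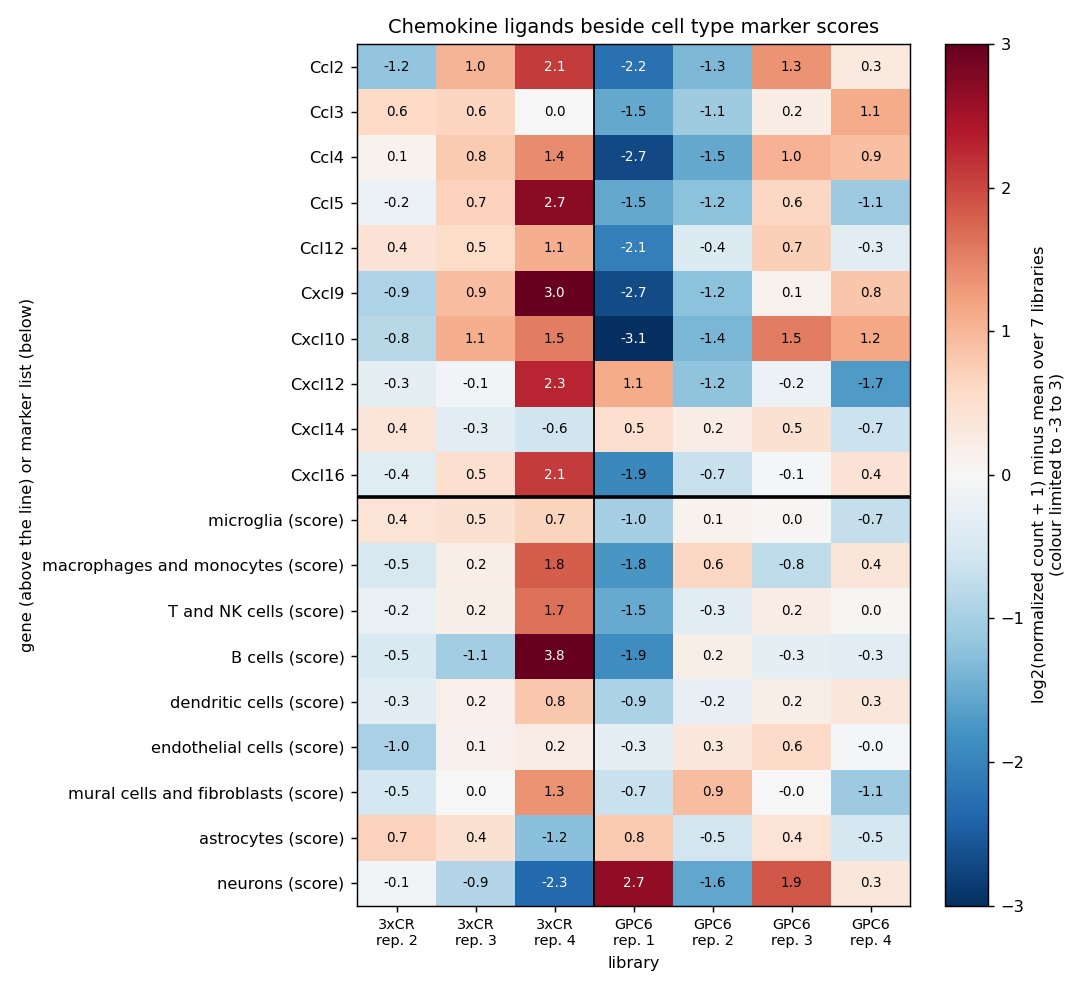
Heat map of the log2 level of the 10 chemokine genes and of marker list scores in each of the 7 libraries, each centred on its mean over the libraries. The column of 3xCR replicate 4 is high and that of GPC6 replicate 1 low for most chemokine rows and for the macrophage, T cell and B cell lists, and the neuron row is the reverse in these 2 libraries.

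The genes whose log2 level was most like that of a chemokine, 3 for each, were taken from the 14782 tested. For Cxcl9 they were Pik3ap1, Traf1 and Slfn2 and for Cxcl16 Tep1, Stx11 and Il10ra, all with r of 0.99 to 1.00, and 220 and 315 genes respectively exceeded an r of 0.95. Ccl2 went with Akr7a5, the Cxcr3 ligand Cxcl11 and Scamp4 (r of 0.98 each), and Ccl5 with Cass4, Sertad1 and Isg20, an interferon-induced nuclease (0.99, 0.98 and 0.98). Ccl4 went with Ifi44, also interferon-induced, and the ribosomal protein genes Rpl39 and Rps24 (0.98 or 0.99). Nearest to Cxcl10 were Syde1, Polr2e and Pilrb1 (0.99 each), and to Ccl12 Mrpl49, Lgals9 and Pcgf5 (0.98 or 0.99). Ccl3 had 4 genes above 0.95, led by Cd320, Suclg2 and Echdc1 (0.95 to 0.97). Cxcl12 was nearest to P2rx3, Ccdc3 and Parva (0.98 each), and Cxcl14 to Trim9, Pvrl1 and R74862 (0.98 to 0.99). With 7 libraries, values this high arise for many genes, and they share the same libraries that stand apart.

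Receptors of the chemokines had lower mean log2 levels in the GPC6 tumors too, and none passed the test. Of 11 signalling receptors tested, 11 had a log2 fold change below 0, with a median of -0.84, 0 at an unadjusted p under 0.05 and 1 without overlap (3.52% of all genes were lower without overlap). That 1 was Ccr8, a receptor of regulatory T cells, at 14.3, 8.37 and 59.4 normalized counts in 3xCR and 6.18, 6.92, 7.98 and 5.14 in GPC6. The gap between 8.37 in 3xCR replicate 3 and 7.98 in GPC6 replicate 3 was smaller than the value of 1 read there (0.930 and 0.887). The separation thus lay within counting error, and the mean of Ccr8, 15.5, rests largely on 3xCR replicate 4. Cx3cr1, the microglial receptor and most abundant of the list, had 1727, 1879 and 2127 against 1210, 1934, 1661 and 1506, a log2 fold change of -0.29. Receptors of the ligands described here were chosen after their values were seen. Ccr2 had 12.6, 37.2 and 191 in 3xCR and 1.55, 35.6, 33.7 and 259 in GPC6. Its highest level was in GPC6 replicate 4. Cxcr3 had 26.3, 11.2 and 416 against 20.1, 31.6, 23.1 and 12.3, high in 3xCR replicate 4 alone. Cxcr6 had 48.2, 40.9 and 169 against 23.2, 60.3, 55.9 and 27.8, and Cxcr4 249, 279 and 832 against 131, 277, 248 and 459.

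Atypical receptors do not signal through G proteins, and many of them take up chemokines. They were higher in mean log2 level for 3 of 4 genes tested (median 0.58), and 0 passed. Ackr3, the scavenger of Cxcl12, had 208, 196 and 188 normalized counts in 3xCR and 136, 135, 328 and 425 in GPC6 (log2 fold change 0.19), low in GPC6 replicates 1 and 2 and high in 3 and 4. Ackr2, a scavenger of CC chemokines, had 9.32, 11.2 and 23.5 against 54.1, 29.6, 36.4 and 16.5 (1.16, limma unadjusted p = 0.0781). Ccrl2, the exception, was at -0.60. The proteases of the list were below 0 for 3 of 3, with Adam10 at -0.08 and Adam17 at -0.61, and 0 passed.

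Of 27 other chemokine ligands listed, 16 were tested, and 7 had a higher and 9 a lower mean log2 level in GPC6 (median -0.31), with 0 at an unadjusted p under 0.05. Cx3cl1, the neuronal ligand of Cx3cr1, was the most abundant, with 1157, 796 and 1163 normalized counts in 3xCR and 5911, 1141, 3824 and 845 in GPC6 (log2 fold change 1.08, limma unadjusted p = 0.146). Its high values were in GPC6 replicates 1 and 3, the libraries with the highest neuron scores, 2.65 and 1.87. Ccl8, a monocyte attractant, had 311, 298 and 6948 against 20.1, 225, 193 and 569 (-2.51, limma unadjusted p = 0.110), highest in 3xCR replicate 4 and lowest in GPC6 replicate 1. Ccl19 and Ccl27a, both on the higher side, have near-identical copies in the genome, and their reads are uncertain. Cxcl11, the other Cxcr3 ligand, had 86.1, 367 and 757 against 21.6, 63.2, 327 and 304 (-1.40).

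**Figure D4:**
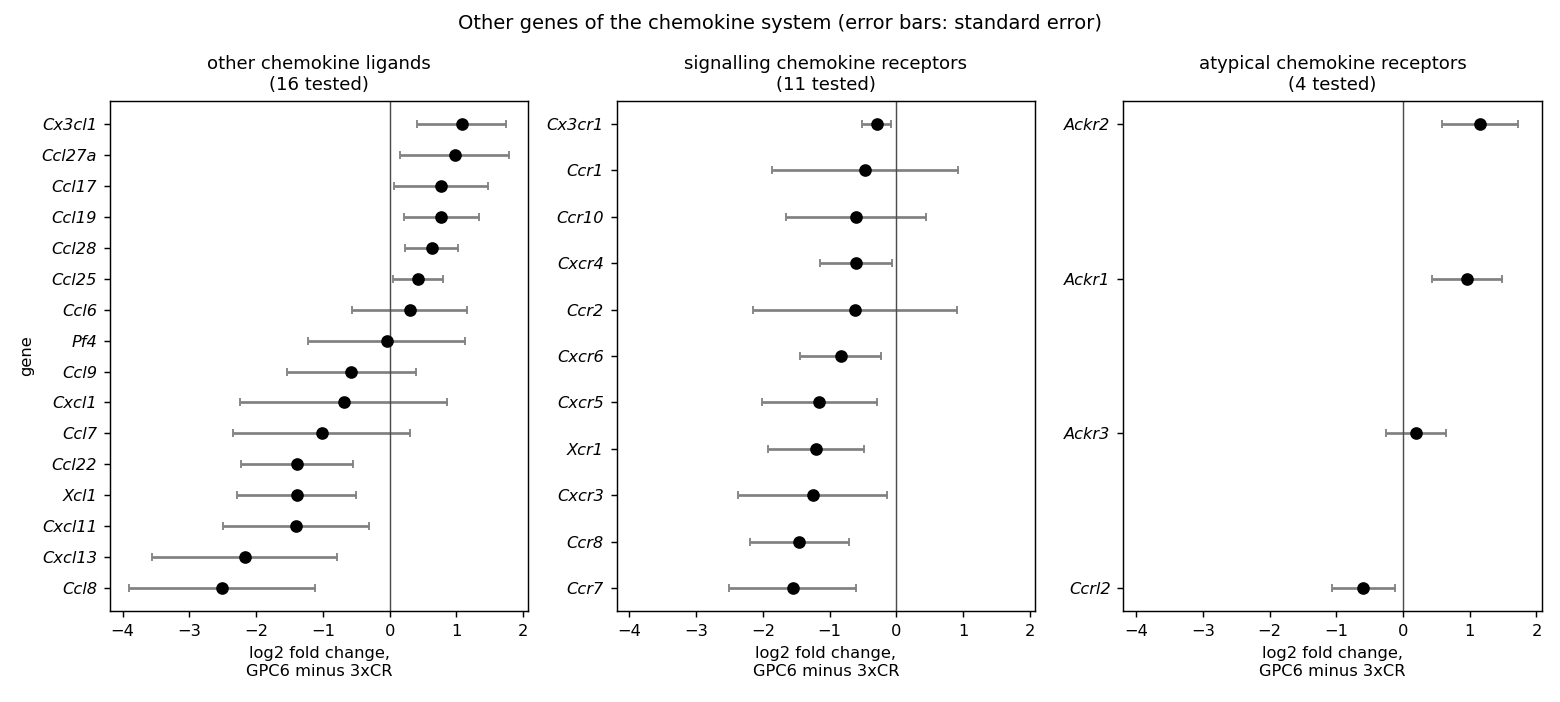
Log2 fold change of GPC6 over 3xCR (points) with its standard error (bars) for the other tested genes of the chemokine system, in 3 panels sorted by value. The 16 other ligands lie on both sides of 0 with a median of -0.31, the 11 signalling receptors all lie below 0 with a median of -0.84, and 3 of the 4 atypical receptors lie above 0.

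In the pathways known to induce these ligands, no gene passed the adjusted test either. All 9 NF-kB genes tested had a log2 fold change below 0 (median -0.46), and 0 of them had an unadjusted p under 0.05. Icam1, the most abundant, had 582, 894 and 894 normalized counts in 3xCR and 215, 731, 877 and 723 in GPC6, with GPC6 replicate 1 alone far below. Relb, a subunit of NF-kB, was at -0.76 (limma unadjusted p = 0.0667). All 9 interferon pathway genes tested were also below 0 (median -0.53), 1 of them at an unadjusted p under 0.05 and 2 without overlap, Ifngr1 and Irf9, named after their values were seen, where 1.92% and 3.52% of all genes were lower by these criteria. Irf1, an interferon-induced transcription factor and the most abundant of the list, had 2464, 3632 and 4051 normalized counts in 3xCR and 478, 1799, 2754 and 3981 in GPC6, so that GPC6 replicates 1 and 2 lay below every 3xCR library and replicates 3 and 4 within their range (log2 fold change -0.92). Irf7, another interferon-induced factor, had 1357, 2082 and 4771 against 420, 518, 1555 and 811 (-1.72, limma unadjusted p = 0.0151, adjusted p = 0.730).

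Markers of the cells that make or answer chemokines also differed between libraries. By list score 3xCR replicate 4 was highest and GPC6 replicate 1 lowest for macrophages, T and NK cells and B cells. By summed counts the B cell list was lowest in 3xCR replicate 3. A list score is the mean over the list's genes of the log2 level after the mean of that gene across all libraries is subtracted. For macrophages and monocytes it was -0.48, 0.19 and 1.82 in 3xCR and -1.75, 0.62, -0.77 and 0.37 in GPC6. All 9 of its markers were below 0 in log2 fold change, and their summed normalized counts ran from 4034 to 37248 in 3xCR and from 1054 to 12196 in GPC6. Lyz2, Ms4a7, Ly6c2, Plac8, Itga4 and Adgre1 were highest in 3xCR replicate 4 and lowest in GPC6 replicate 1. Other markers of the list were not. Cd163 was at 20.7 in 3xCR replicate 4 and at 68.0 in GPC6 replicate 1. F13a1 was at 30.4 in 3xCR replicate 4 against 135 in 3xCR replicate 3 and 138 in GPC6 replicate 2. Mrc1 was highest in GPC6 replicate 2, at 249. GPC6 replicate 2 had the second highest macrophage score while ranking 2 from the lowest for 9 of the 10 chemokines. The microglia score was 0.41, 0.46 and 0.68 in 3xCR and -0.99, 0.11, 0.04 and -0.70 in GPC6, with 8 of 9 markers below 0 and sums of 10392 to 14303 and of 6853 to 9580. Its markers did not go together in GPC6 replicate 1. Fcrls was at 0 there, while Siglech, at 83.5, was at its highest of all libraries. Gpr34, at 77.3, was second only to 3xCR replicate 2. Tmem119, its marker of smallest p, had 1378, 1607 and 2456 against 753, 792, 1186 and 683 (log2 fold change -1.08, limma unadjusted p = 0.00553, adjusted p = 0.730). All 11 T and NK cell markers tested were below 0, with sums of 493 to 1728 against 335 to 589. In GPC6 replicate 1 Gzmb was at 0, whereas Cd4, at 196, was second only to 3xCR replicate 4. Ncr1, which did not pass the filter, was at 0 there and at 0.548 in 3xCR replicate 2.

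B cell markers set 3xCR replicate 4 apart from the rest. Cd79a had 107, 27.9 and 1858 normalized counts in 3xCR and 75.7, 103, 79.8 and 54.5 in GPC6, and the summed list ran from 51.2 to 2345 in 3xCR and from 80.4 to 147 in GPC6. Cxcl13, the B cell attractant, chosen after its values were seen, had 86.1, 435 and 4004 against 40.2, 37.5, 328 and 379, again with 3xCR replicate 4 highest. Col1a1, a fibroblast collagen and the most abundant of the mural and fibroblast list, had 76.7, 286 and 9756 against 40.2, 1073, 106 and 46.3, highest in the library where Cxcl12 was also highest. The mural markers were divided in that same library. Rgs5 and Vtn, at 58.0 and 199, had their lowest values there. Pdgfrb, at 971, had its highest, and Kcnj8, at 77.3, was second only to GPC6 replicate 2. Neuron scores were lowest in 3xCR replicate 4 and highest in GPC6 replicate 1. They were -0.09, -0.87 and -2.33 in 3xCR and 2.65, -1.56, 1.87 and 0.33 in GPC6, and all 8 neuron markers were above 0 in log2 fold change. In 3xCR replicate 4 Stmn2, at 1776, and Tubb3, at 1316, were the highest of the 3xCR libraries. The other neuron markers had their lowest values there. In GPC6 replicate 2 neuron and chemokine levels were both low, and in GPC6 replicate 3 both high. Endothelial scores were -0.98, 0.14 and 0.22 in 3xCR and -0.26, 0.32, 0.58 and -0.03 in GPC6, with 7 of 8 markers above 0, and Flt1, at 0.92 (limma unadjusted p = 0.0240), was the 1 at an unadjusted p under 0.05, against 2.74% of all genes higher. With the microglia and macrophage score as a covariate, the median of the 10 chemokines was -0.27 and 8 were below 0. The part of these cell types in the chemokine values was not tested.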

How the data were processed

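RNA-Seq libraries of endpoint tumors were grouped by their labels, 3 for 3xCR and 4 for GPC6. Per the labels and the paper, the authors aligned reads to mm10 with STAR 2.5.0a, counted them with Rsamtools and GenomicFeatures, and scaled each library by its size factor from DESeq2 1.20.0. The deposited values are these normalized counts, a linear signal with no correction for gene length. The rule for reads that match several genes is not stated. All 7 columns were used. Of 19282 entries, 25 names that had turned into dates were left out (0.254% to 0.361% of reads). All values (100%) were whole multiples of 1 read within 0.01, so reads were recovered.

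Groups were compared by limma (3.58.1, under R 4.3.3) after the normalized count plus 1 was taken to log2. The variance followed a trend, and genes with a mean of at least 10 were tested. Tests were two-sided with Benjamini-Hochberg adjustment over all 14782 genes, and fold changes on this scale understate those of low genes. Count tests (edgeR 4.0.16 and DESeq2 1.42.0), voom, other pseudocounts, filters and scalings, arrayWeights, a covariate, a replicate block and omission of libraries were alternatives. The omission of 2 libraries at once was added after seeing the data. The scripts were checked on simulated counts. The chemokines and the lists were chosen with earlier results of these data known. Each list is represented by its most abundant gene and the genes of smallest p in each direction, and for each chemokine the 3 genes of highest correlation. Avp, Cd4, Cd163, Cxcl13, F13a1, Gpr34, Ifngr1, Irf9, Itga4, Kcnj8, Ly6c2, Mrc1, Ms4a7, Pdgfrb, Plac8, Rgs5, Siglech, Stmn2, Top2a, Ttr, Tubb3, Vtn, the markers at 0 and the receptors of the chemokines were named after their values were seen. Some genes are not reported here and were left out of the lists. Levels per kb use the joined exons of GENCODE M21.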

Additional observations from a re-analysis of the deposited data

How the results depend on the processing

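At an adjusted p under 0.05, arrayWeights called 1962 genes and DESeq2 9 against 0 in limma, and the 10 chemokines were not among the calls under any setting. At an unadjusted p under 0.05 the 689 genes became 1793 with DESeq2, 5105 with arrayWeights and 213 with the microglia and macrophage covariate, and omission of libraries gave 119 (without 3xCR replicate 4) to 1401 (without GPC6 replicate 2). It fell to 379 without 3xCR replicate 3, 385 without GPC6 replicate 3 and 459 without GPC6 replicate 1, and reached 1137 without 3xCR replicate 2 and 1159 without GPC6 replicate 4. The share higher in GPC6 among the unadjusted calls, 58.8%, was 69.8% with DESeq2, 42.9% with voom and 24.9% with the covariate. Omission of 1 or 2 libraries gave log2 fold changes of -2.04 to 0.19 for Ccl2, -1.21 to 0.26 for Ccl3, -1.88 to 0.20 for Ccl4, -1.77 to 0.75 for Cxcl10 and -0.0247 to 0.59 for Cxcl14. Signs also turned for Cxcl10 with arrayWeights (0.0584) and with the covariate for Ccl2 (0.0803), Cxcl10 (0.32) and Cxcl14 (-0.0777). ArrayWeights moved the median of the 10 chemokines from -1.17 to -0.24, with Ccl5 at -0.49, and Cxcl14 alone had an unadjusted p under 0.05, at a log2 fold change of 0.63. The cause was not tested. Replicate numbers were not taken to pair animals. Same-numbered libraries correlated at -0.19, 0.12 and 0.30, and 3 of 6 correlated best with their own number. So few libraries cannot decide whether the numbers pair them. With a replicate block, which uses no GPC6 replicate 1 in the fold changes, 678 genes had an unadjusted p under 0.05 and 0 passed adjustment. Depth limits Ccl4 in GPC6 replicate 1, at 3 reads.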

Other observations

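The ratio of Cxcl9 to Cxcl10 normalized counts was 1.12, 1.06 and 3.24 in the 3xCR libraries and 1.61, 1.30, 0.442 and 0.939 in the GPC6 libraries. Thus 3xCR replicate 4 held more Cxcl9 than its Cxcl10 level would give at the ratio of any other library, and in GPC6 replicate 3 Cxcl10 exceeded Cxcl9 by the widest margin. The groups overlapped in this ratio, and no test was made.

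No single GPC6 library stood apart from the other 3 by Dixon's criterion for any of the 10 chemokines. The nearest were Ccl5 in replicate 3, at 0.797 of the group's range, and Cxcl14 in replicate 4, at 0.755. The 3xCR group, with 3 libraries, was not examined in this way.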
